A study of Mus musculus with 6 samples.

Results

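The regions described here are 3461 peaks of open chromatin that were called in wild-type (WT) mouse cardiac fibroblasts and had no counterpart in fibroblasts labelled as Acta2 knockouts (KO). They were selected on measured values. A peak of the WT list on chromosomes 1 to 19 was taken when its fold enrichment was at least 5 and when no KO peak shared 1 base with it. The WT list held 121651 peaks on those chromosomes, of 123935 in all, and 68709 of them reached that fold, so that 5.04% of strong WT peaks were found only in WT. In the other direction, 6417 of 79268 strong KO peaks, or 8.1%, overlapped no WT peak. Fold values came in steps that differed between the lists, so the lowest fold kept was 5.34 in WT and 5.10 in KO. The 2 counts and shares therefore rest on slightly unlike cutoffs. ATAC-seq was done on 1 library for each genotype, so the WT-only peaks describe a difference between these 2 libraries, with no replicate check and no test of accessibility. RNA-seq, which played no part in the choice of the peaks, had 2 KO and 2 WT libraries.

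Cardiac fibroblasts are the connective tissue cells of the heart, and Acta2 encodes α-smooth muscle actin, an actin of smooth muscle and of the contractile myofibroblasts that form after injury. One protocol in the labels describes fibroblasts of WT mice and of mice with a floxed Acta2 allele (Acta2fl/fl), both given Adeno-Cre, an adenovirus that delivers the Cre recombinase, and then TGF-β for 2 days. Both genotypes are thus described as having received virus and TGF-β, and no library without TGF-β was used here. Another protocol in the same labels describes mice injected with tamoxifen at 75 mg per kg and day over 5 days from an age of 6 weeks to activate MerCreMer, with ligation of the left coronary artery at 9 weeks and a second tamoxifen course around the surgery. From these hearts, cells marked with eGFP through the Tcf21 lineage were sorted. The labels do not state which of the 2 preparations each library came from, nor whether libraries of a genotype came from separate mice or cultures. The p-values below therefore measure the spread between these RNA libraries, which may be technical.

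Open chromatin peaks mark stretches of DNA where transposase can insert, mostly promoters and distal enhancers. An enhancer can act on a gene far away in the genome, and genes that define a cell's identity are often flanked by many of them. Distal peaks differ between cell states more than promoters do, and the gene nearest to a peak is a common but imperfect guess at its target.

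The 200 bases around the summit of 8 WT-only peaks are printed because these peaks lie nearest to genes on which the results below turn: transcription factors of cardiac mesenchyme (Klf4, Nfia, Tcf21), matrix genes (Adamts2, Postn, Tnc), a receptor regulator (Lrig3) and a growth factor (Fgf10). For each gene the sequence is that of its WT-only peak with the highest fold and under 50% of bases marked as repeat. Letters are the plus strand of GRCm38.p6 (mm10), 5′ to 3′, read from the RefSeq copy of that assembly, and capitals mark matches to 21 searched motifs on either strand.
Klf4, chr4:55703444-55703643: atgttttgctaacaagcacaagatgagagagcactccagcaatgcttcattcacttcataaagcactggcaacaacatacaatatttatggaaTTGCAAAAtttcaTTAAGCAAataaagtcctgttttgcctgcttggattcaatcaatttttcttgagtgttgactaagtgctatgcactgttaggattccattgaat
Nfia, chr4:97698382-97698581: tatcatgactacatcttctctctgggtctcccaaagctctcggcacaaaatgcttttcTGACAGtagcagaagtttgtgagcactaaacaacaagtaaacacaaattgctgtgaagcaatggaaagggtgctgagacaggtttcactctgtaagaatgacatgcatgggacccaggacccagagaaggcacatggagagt
Tcf21, chr10:22875332-22875531: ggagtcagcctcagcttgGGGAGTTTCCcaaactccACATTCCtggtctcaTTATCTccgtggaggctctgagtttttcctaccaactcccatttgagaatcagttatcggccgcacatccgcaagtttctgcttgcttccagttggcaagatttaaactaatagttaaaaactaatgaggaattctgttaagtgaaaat
Adamts2, chr11:50707373-50707572: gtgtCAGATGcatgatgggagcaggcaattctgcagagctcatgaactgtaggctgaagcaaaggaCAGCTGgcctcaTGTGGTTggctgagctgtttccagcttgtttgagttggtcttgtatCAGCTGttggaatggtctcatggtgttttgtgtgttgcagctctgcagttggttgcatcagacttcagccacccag
Postn, chr3:54477895-54478094: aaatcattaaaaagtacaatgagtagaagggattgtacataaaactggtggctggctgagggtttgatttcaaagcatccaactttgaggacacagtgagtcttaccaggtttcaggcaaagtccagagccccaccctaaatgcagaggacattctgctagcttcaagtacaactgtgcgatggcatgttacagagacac
Tnc, chr4:64544781-64544980: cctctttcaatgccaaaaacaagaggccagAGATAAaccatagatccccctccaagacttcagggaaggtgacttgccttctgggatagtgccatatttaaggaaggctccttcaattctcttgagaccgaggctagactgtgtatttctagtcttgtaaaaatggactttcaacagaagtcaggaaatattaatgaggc
Lrig3, chr10:126103015-126103214: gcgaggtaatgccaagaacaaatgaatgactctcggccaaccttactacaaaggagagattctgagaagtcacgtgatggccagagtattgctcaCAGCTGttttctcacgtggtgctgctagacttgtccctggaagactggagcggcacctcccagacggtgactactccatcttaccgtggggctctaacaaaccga
Fgf10, chr13:118732328-118732527: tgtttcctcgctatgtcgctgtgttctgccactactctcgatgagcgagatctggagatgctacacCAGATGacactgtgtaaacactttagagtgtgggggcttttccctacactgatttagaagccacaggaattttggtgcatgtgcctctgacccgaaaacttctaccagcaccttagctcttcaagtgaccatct
Capitals stand for 2 matches to the C/EBP motif TTGCNNAA in the Klf4 window, and for 1 match to the MEIS motif CTGTCA in the Nfia window. In the Tcf21 window they stand for an NF-kappaB motif, the TEAD motif ACATTCC and the GATA motif AGATAA. The Adamts2 window held 1 match to the RUNX motif TGTGGTT, 2 to the E-box CAGCTG and 1 to the E-box CATCTG, and the Lrig3 window held 1 CAGCTG. The Tnc window held 1 GATA match, the Fgf10 window 1 CATCTG, and the Postn window no match. Most of these motifs are short and common: in 300-base windows of all WT peaks, 24.2% held CATCTG, 20.7% CAGCTG, 22.7% MEIS, 12.5% GATA, 11.9% C/EBP, 7.17% RUNX, 6.63% TEAD and 1.08% NF-kappaB. A match describes letters in a window and is not evidence that a factor binds there.

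The WT-only peaks were mostly modest in height. Their fold enrichment ran from 5.34 to 46.0 with a median of 5.75, against a median of 9.04 in the 65248 strong WT peaks shared with KO. Fold values came in steps of 0.411 in the WT list, and 1343 members (38.8%) stood on the first step above the threshold, at 5.34, while 2117 further WT-only peaks stood just below it at 4.93. Of the members, 3118 (90.1%) had a fold under 7 and 42 had a fold of at least 10. To compare peaks of like height, position and sequence are set below beside shared peaks weighted to the members' own distribution of folds. The nearest KO peak lay a median of 3875 bases away. It was within 200 bases of 92 members (2.66%) and within 1000 bases of 642 (18.6%), and 1047 members (30.3%) had no KO peak within 10 kb.

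WT-only peaks lay far from promoters. By their summits, 1636 (47.3%) were in introns, 1497 (43.3%) between genes, 173 (5.00%) within 1 kb of a transcript start and 155 (4.48%) in exons. Promoters made up 23.5% of all shared strong WT peaks, 8.21% of shared peaks weighted to like fold and 6.27% of strong KO-only peaks. The intergenic share was 36.4% in shared peaks of like fold and 37.1% in KO-only peaks. Members under 50% masked as repeat, described below, were 38.4% intergenic and 5.58% at promoters, so that most of the intergenic excess lay in the masked members. The median distance to the nearest gene start was 31.5 kb, against 25.3 kb in shared peaks of like fold and 25.9 kb in KO-only peaks, and it was 29.7 kb in members under 50% masked. Of the members, 23.5% lay over 100 kb from the closest start of a gene of the RNA count table, against 16.4% of shared peaks of like fold. Other transcript starts were not counted in these distances, so a peak at a promoter can lie far from its nearest gene. They were spread over all 19 autosomes at similar rates, from 4.42% of strong WT peaks on chromosome 11 to 5.97% on chromosome 14.

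**Figure D1:**
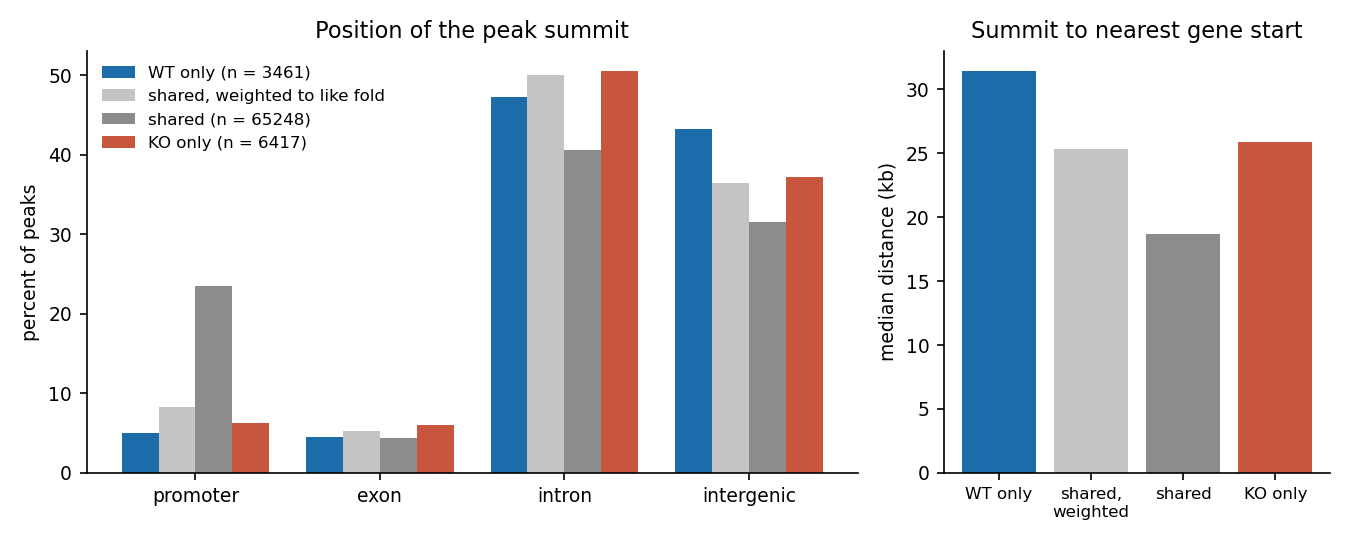
Left, percent of peaks (vertical axis) whose summit lies within 1 kb of a transcript start, in an exon, in an intron or between genes, for strong WT-only peaks, shared strong WT peaks weighted to the same folds, all shared strong WT peaks and strong KO-only peaks; right, the median distance in kb from summit to nearest gene start in the same 4 sets. WT-only peaks had the lowest promoter share (5.00%) and the longest median distance (31.5 kb) of the 4 sets.

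Repetitive DNA held a larger part of the WT-only peaks than of the sets beside them. In 466 members (13.5%) at least 80% of the bases are soft-masked in the assembly, that is, marked as interspersed or simple repeat. The share was 2.65% in shared strong WT peaks, 1.92% in those of like fold and 1.496% in KO-only peaks. Read the other way, 21.2% of the 2196 strong WT peaks this heavily masked were absent from the KO list, against 4.54% of those under 10% masked. Among strong KO peaks, 6.59% of the 1457 heavily masked ones and 8.68% of those under 10% masked were found only in KO. In the class from 50% to under 80% masked, both shares were raised, at 14.5% in WT and 15.4% in KO. The heavily masked members were wide, with a median of 1226 bases against 494 in members under 10% masked. They were remote as well, with a median distance of 33131 bases to the nearest KO peak and 72.7 kb to the nearest gene start, and 69.3% were intergenic.

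Most of the heavily masked members were alike in sequence. When the 466 peaks were aligned to each other (blastn, at least 80% identity over at least 200 bases), 428 matched another, with a median best identity of 95.9%, and 399 were linked into a single group spread over all 19 chromosomes. The soft mask does not name repeat families, so the group is called by its rule here, and its copies are not independent of each other. The group also reached beyond the WT-only peaks: 1521 of the 1730 heavily masked shared strong WT peaks aligned to it. Of the 96 heavily masked KO-only peaks 43 (44.8%) aligned to it. In the KO list, 1148 of the 1361 heavily masked shared strong peaks (84.4%) aligned to the group. Altogether 1920 strong WT peaks belonged to the group, of which 399 (20.8%) were absent from the KO list, and 1191 strong KO peaks belonged to it. The group was built from peaks chosen for their absence from the KO list, so these counts are a description. Per the labels only unique alignments were kept, and with 1 library a genotype, a difference between libraries and one between genotypes cannot be told apart.

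**Figure D2:**
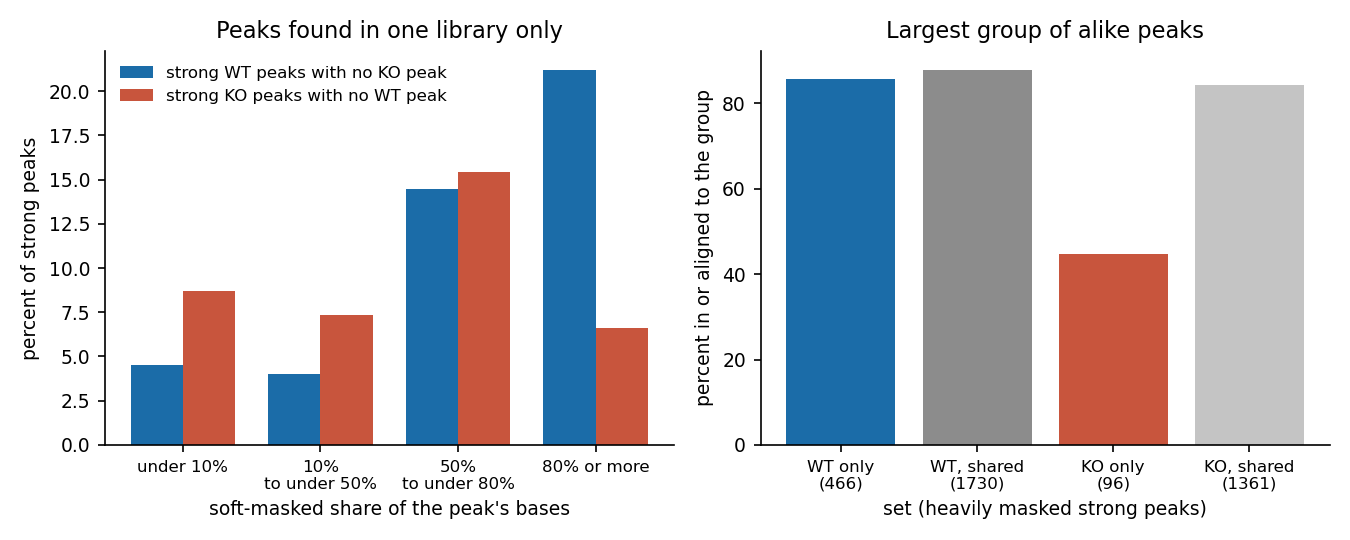
Left, percent of strong WT peaks with no KO peak and of strong KO peaks with no WT peak (vertical axis), by the share of a peak's bases that is soft-masked as repeat; right, percent of the heavily masked peaks (at least 80% masked) of each of 4 sets that belong or align to the largest group of alike members. The WT-only share is 21.2% in the most masked class, where the KO-only share is 6.59%, and KO-only peaks have the lowest share aligned to the group (44.8%).

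The members with the highest fold were unlike the bulk. The 12 highest ranks held 14 peaks because of ties, with folds from 12.3 to 46.0, and the 100 bases around each summit occur once in the assembly. The highest, at a fold of 46.0, was 275 bases wide and lay in an intron of Cobl, a gene for an actin-nucleating protein, at chr11:12375010-12375284, 1132 bases from a KO peak. The next had a fold of 29.6 between genes upstream of Hic2, a transcriptional repressor (chr16:17222260-17222764). The third, with a fold of 20.1, lay between genes near Eif1, a translation initiation factor (chr11:100302143-100302416), and was masked over its whole length. Another, with a fold of 18.5, lay in an intron near Cldn20, a claudin of tight junctions (chr17:3451140-3451570). Of the 14 peaks, 5 belonged to the aligned repeat group, and those nearest to Mlf1, Zfp972, Gm42781, Usp17le and Aga were at least 95.0% masked. The others had as nearest genes H60b, 9030624G23Rik, Gm45293, Vmn1r90, a vomeronasal receptor, and Olfr161, an olfactory receptor, the last at a distance of 468 kb. Only Cobl, Eif1, Aga and 9030624G23Rik of the 14 nearest genes had enough RNA to be tested, with Eif1 higher in KO by 0.35 on the log2 scale (551 and 524 CPM, that is counts scaled to library size, in WT; 701 and 668 CPM in KO) and Aga, whose start is 1182541 bases from its peak, at a log2 fold change of -0.23 (284 and 275 CPM in WT, 242 and 235 CPM in KO; edgeR adjusted p = 8.95e-05).

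Short motifs of transcription factors were counted in the 300 bases around each summit, on both strands, as a description. AP-1 (TGANTCA), the site of Fos and Jun factors, was found in 660 members (19.1%), against 24.1% of shared peaks of like fold, 25.5% of KO-only peaks and 19.7% of all WT peaks. Among peaks under 50% masked the AP-1 share was 22.0% in members, 24.3% in shared peaks of like fold and 25.4% in KO-only peaks, and in heavily masked members it was 2.36%. RUNX (TGTGGTT), the site of Runx factors, went the other way, at 9.13% in members against 7.81% in shared peaks of like fold and 7.51% in KO-only peaks. It stayed at 9.24% in members under 50% masked. The GC box GGGCGG, common in promoters, was at 5.72% in members, 7.75% in shared peaks of like fold and 17.6% in all shared strong peaks. TEAD (ACATTCC) stood at 6.47% against 7.46%, but at 7.54% against 7.60% among peaks under 50% masked, and CTCF, the insulator motif, at 1.59% against 1.85%. The CArG box is bound by SRF, the factor that drives Acta2 and other contractile genes. It was at 1.68% in members, 1.485% in shared peaks of like fold, 1.81% in KO-only peaks and 1.41% in all WT peaks. Among peaks under 50% masked it was at 1.34% in members, 1.51% in shared peaks of like fold and 1.77% in KO-only peaks. Its direction against shared peaks thus turned with masking, while members were below KO-only peaks both ways. C/EBP (TTGCNNAA) was found in 14.04% of members, 12.9% of shared peaks of like fold and 11.03% of KO-only peaks. Among peaks under 50% masked the C/EBP shares were 13.26%, 12.8% and 11.13%, and in heavily masked members the share was 19.31%. Of the other motifs searched, ETS (CCGGAA), CRE (TGACGTCA), MEIS (CTGTCA), SMAD (CAGACA), the GATA motif given above, TCF/LEF (CTTTGAT), NF-kappaB and the E-box CATCTG had lower shares in members than in shared peaks of like fold, and IRF and STAT (TTCCNGGAA) had higher ones, both over all peaks and among those under 50% masked. The E-box CAGCTG was lower over all peaks (21.0% against 21.6%) and higher under 50% masked (23.2% against 21.9%), and MEF2 was at 2.32% against 2.28% under 50% masked. The full NFI and glucocorticoid receptor motifs had no match in members, and they were rare in all WT peaks as well (0.0559% and 0.00904%). Matches of different motifs may overlap, and the 4 sets were compared without a test because the peaks were chosen by measured values.

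The genes nearest to the WT-only peaks moved in both directions. The 3461 peaks had 2909 nearest genes, of which 1607 had enough RNA for the test (edgeR quasi-likelihood test over 12192 genes, Benjamini-Hochberg adjusted p under 0.05). Of these, 327 (20.3%) were called lower in KO, against 17.4% of all genes tested, and 303 (18.9%) higher, against 18.3%. The median log2 fold change of KO over WT was -0.02 over these genes and 0.00 over all genes tested, so the nearest genes as a whole stood close to the background. Scaled by library size alone, the counts were 295 lower and 325 higher, and with DESeq2 they were 185 lower and 132 higher. Nearest genes of shared strong peaks were called lower at 17.1% and higher at 18.7%. Those of KO-only peaks were called lower at 15.3% and higher at 21.3%. The WT-only and KO-only peaks shared 1036 nearest genes, 35.6% of the WT-only list and 21.7% of the KO-only list. The 961 tested genes with WT-only but no KO-only peaks were called lower at 22.6% and higher at 17.5%.

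The share of genes called lower differed with the height, distance and number of the peaks. For peaks of a fold of at least 8, 25 of 72 tested nearest genes (34.7%) were called lower and 9 (12.5%) higher, while at a fold minimum of 4 the shares were 18.1% and 19.1%. Of genes whose WT-only peak lay over 50 kb from the start, 25.9% were called lower and 16.4% higher, against 19.7% and 17.1% for shared strong peaks at that distance. Where the start was within 10 kb, 17.6% were called lower and 21.9% higher. Of 272 tested genes with at least 2 WT-only peaks, 23.9% were called lower and 14.7% higher. Of 57 genes with at least 3, 36.8% were called lower and 15.8% higher. Of 16 genes with at least 4, 10 (62.5%) were called lower and 1 higher, with a median log2 fold change of -0.24. These sets are nested. With exactly 1 WT-only peak, 19.6% were called lower and 19.7% higher (1335 genes). With exactly 2 the shares were 20.5% and 14.4% (215 genes), and with exactly 3 they were 26.8% and 19.5% (41 genes). Genes with at least 4 KO-only peaks were called lower at 16.4% and higher at 25.4% (67 genes). The 16 genes were also expressed more than most, with a median mean log2 CPM of 5.81 against 4.40 over all genes tested. The part of expression level, gene density or distance in these shares was not tested. With DESeq2, 5 of the 16 were called lower and 1 higher. When only peaks under 50% masked were counted, 5 of 9 genes with at least 4 peaks were called lower.

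**Figure D3:**
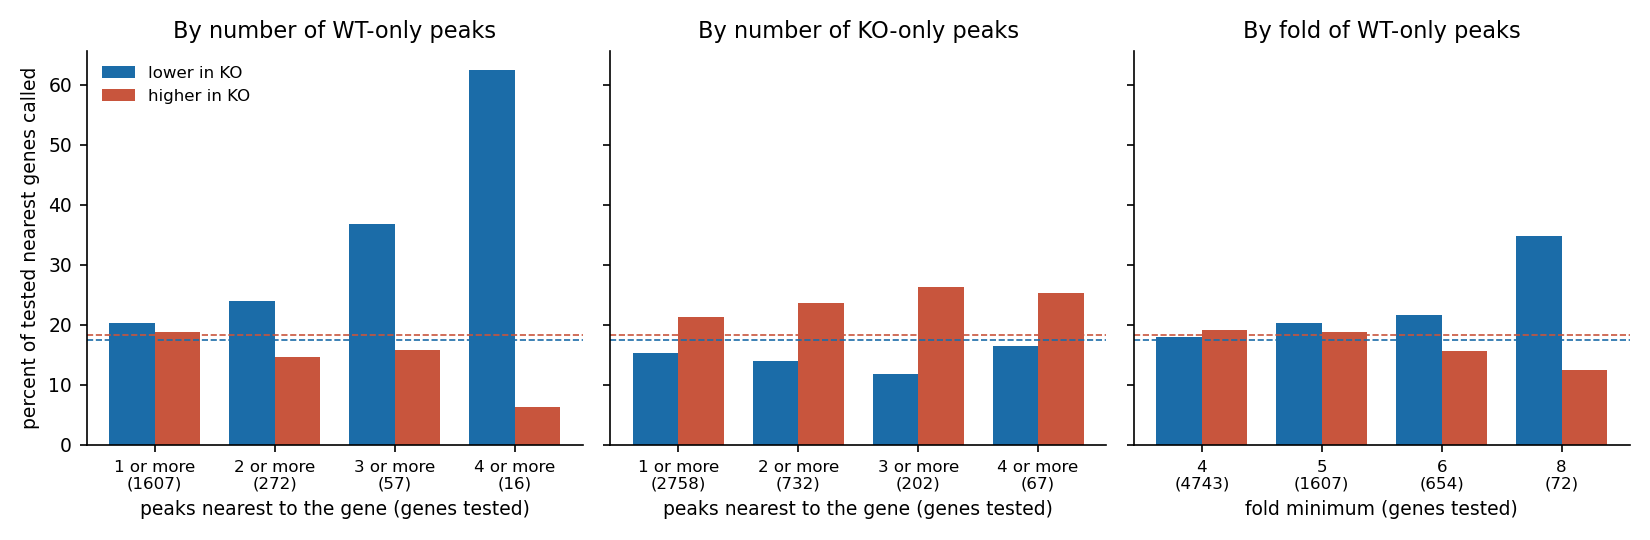
Percent of tested nearest genes called lower or higher in KO RNA (vertical axis; edgeR, adjusted p under 0.05), by the number of WT-only peaks nearest to the gene (left), by the number of KO-only peaks (middle) and by the fold minimum for WT-only peaks (right); numbers in brackets are genes tested, and dashed lines are the shares over all 12192 genes. The sets within each panel are nested, so the genes at the right end are counted in every set to their left. The share called lower is 20.3% over all tested nearest genes of WT-only peaks and 62.5% over the few with at least 4 (16). With exactly 2 WT-only peaks it is 20.5% (215 genes). It is 18.1% at a fold minimum of 4 and 34.7% at 8.

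The genes with the most WT-only peaks had 5 or 6 each. Tnc, Klf4, Adamts2, Cobl and Lrig3 had 6 each, and Efna5, Bmper, Trib2 and Kcnv1 had 5 each. In that order, the same genes were nearest to 17, 34, 17, 13, 12, 18, 32, 41 and 2 shared strong peaks. Their strong KO-only peaks numbered 2, 2, 0, 0, 2, 5, 3, 4 and 0. Klf4 encodes a transcription factor that restrains the smooth muscle programme, and its 6 peaks lay between genes, from 54.2 to 297 kb from its start on both sides, with 2 strong KO-only peaks nearest to the same gene. Klf4 RNA was at 38.3 and 38.5 CPM in the WT libraries and 22.7 and 27.1 CPM in KO. Its log2 fold change was -0.63 (SE 0.10, edgeR adjusted p = 1.25e-05). Adamts2, which encodes the protease that trims fibrillar procollagens, had 4 of its 6 peaks in its own introns and no KO-only peak. Its RNA was at 89.0 and 88.4 CPM in WT and 49.5 and 48.3 CPM in KO, a log2 fold change of -0.86 (SE 0.07, edgeR adjusted p = 2.80e-11). Both KO libraries were low for it. Lrig3, which encodes a membrane protein that modulates growth factor receptors, had peaks from 28.3 to 284 kb from its start. Lrig3 RNA was at 7.20 and 11.8 CPM in WT and 6.57 and 5.20 CPM in KO (log2 fold change -0.70, SE 0.21, edgeR adjusted p = 0.0115), with 1 WT library close to the KO libraries. Without WT replicate 2 its fold change was -0.29 and without KO replicate 2 it was -0.54, and neither passed the test, nor did DESeq2.

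Bmper encodes a secreted regulator of BMP signalling. Its 5 peaks lay from 18.5 to 131 kb from its start, 3 of them in its introns. Bmper RNA was at 79.3 and 86.7 CPM in WT and 51.4 and 56.1 CPM in KO, a log2 fold change of -0.63 (SE 0.07, edgeR adjusted p = 3.49e-08). Efna5, a membrane-bound ligand of Eph receptors, had as many WT-only as KO-only peaks, 5 each, and its WT-only peaks lay from 160 to 1760 kb from its start. Its RNA was at 60.3 and 64.7 CPM in WT and 50.7 and 58.3 CPM in KO (log2 fold change -0.20, SE 0.08, edgeR adjusted p = 0.0403). DESeq2, scaling by library size alone and testing without the filter on low counts each ended the call, as did leaving out KO replicate 1 (-0.11) or WT replicate 2 (-0.15). Tnc went against the others. It encodes tenascin-C, a matrix glycoprotein of healing tissue, and its 6 peaks lay upstream, from 92.9 to 517 kb away. Tnc RNA was at 177 and 181 CPM in WT and 230 and 234 CPM in KO, a log2 fold change of 0.38 (SE 0.04, edgeR adjusted p = 1.57e-07). Cobl RNA did not pass the test (4.32 and 4.65 CPM in WT, 5.26 and 5.48 CPM in KO, edgeR adjusted p = 0.416). Trib2, a pseudokinase, did not pass either (42.1 and 40.6 CPM in WT, 40.3 and 34.1 CPM in KO, edgeR adjusted p = 0.204). Kcnv1, a potassium channel subunit, was too low to be tested, and 4 of its 5 peaks were over 98% masked.

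A further 13 genes had 4 WT-only peaks each, and those named here were chosen after their values were seen. Osr1, a transcription factor of cardiac and limb mesenchyme, had 4 WT-only peaks and no KO-only peak, and 2 of the 4 were heavily masked. Osr1 RNA was at 118 and 123 CPM in WT and 63.7 and 69.2 CPM in KO, a log2 fold change of -0.86 (SE 0.06, edgeR adjusted p = 3.21e-12). Pcdh17, a protocadherin of cell adhesion, was called lower as well (5.04 and 3.32 CPM in WT, 1.93 and 2.28 CPM in KO, log2 fold change -0.98), though all 4 of its peaks were over 94% masked. Tln2, which links integrins to actin, Xpnpep1, an aminopeptidase, and Ywhaq, a 14-3-3 protein, were called lower by small amounts, with log2 fold changes of -0.33, -0.13 and -0.11. KO-only peaks numbered 1 for Tln2, 0 for Xpnpep1 and 6 for Ywhaq. With DESeq2 the calls of Pcdh17, Tln2 and Xpnpep1 were lost. They were also lost without 1 of 2 libraries each: for Pcdh17 KO replicate 1 (-0.87) or WT replicate 1 (-0.66), for Tln2 KO replicate 2 (-0.29) or WT replicate 2 (-0.28), and for Xpnpep1 KO replicate 2 (-0.12) or WT replicate 1 (-0.11). Zeb2, a repressor of epithelial genes, also had 4 KO-only peaks. It was not called, with 52.9 and 57.9 CPM in WT and 48.6 and 56.1 CPM in KO. Epha7 and Ndufa4 did not pass the test either. Itgb6 and Tbx4 were among 6 genes of the 22 with at least 4 peaks that had too little RNA to be tested.

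Over all autosomal genes, 11.87% were nearest to a WT-only peak and 19.51% to a KO-only peak, which is the background for the gene lists that follow. The longest list held transcription factors of cardiac mesenchyme and fibroblasts. Of 37 genes of that list, 13 were nearest to a WT-only peak, with 35 peaks in all, while 18 were nearest to a KO-only peak, with 32 peaks. All 13 were tested, and 7 were called lower and 1 higher in KO. Over the list's 36 tested genes, 14 were called lower and 8 higher. The genes lower in KO with WT-only peaks were Klf4, Osr1, Nfia, Tcf21, Runx1, Meis2 and Ebf2, and Hand2 was higher. Nfia, a factor of the NFI family, had 3 peaks and no KO-only peak, and its peak with a fold of 11.5 was 2587 bases wide. Nfia RNA was at 65.5 and 66.5 CPM in WT and 39.5 and 38.3 CPM in KO (log2 fold change -0.76, SE 0.07, edgeR adjusted p = 3.49e-09), so both KO libraries were low. Tcf21, the factor that marks cardiac fibroblasts and their precursors, had 2 intergenic peaks at 55.3 and 184 kb upstream. Its RNA was at 10.9 and 11.1 CPM in WT and 5.61 and 6.85 CPM in KO (log2 fold change -0.82, SE 0.18, edgeR adjusted p = 6.58e-04). Runx1, a Runx factor induced in injured hearts, had 3 peaks and moved less, from 51.8 and 53.5 CPM in WT to 43.4 and 45.9 CPM in KO (log2 fold change -0.24, edgeR adjusted p = 0.0153). Ebf2, an early B-cell factor expressed in mesenchyme, had 2 peaks and a log2 fold change of -0.24. Calls for Runx1, Ebf2, Meis2 and Hand2 were lost with DESeq2, and that of Meis2 also under scaling by library size alone or without the filter on low counts. Leaving out 1 library ended them as well: KO replicate 1 (-0.20) or WT replicate 2 (-0.22) for Runx1, KO replicate 2 (-0.17) or WT replicate 1 (-0.17) for Ebf2, KO replicate 2 (-0.21) or WT replicate 1 (-0.23) for Meis2, and WT replicate 1 (0.26) for Hand2. Foxp1, Sox4, Gata6, Tbx5 and Zeb2 of this list had WT-only peaks and did not pass the test.

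Among matrix genes, 8 of 29 were nearest to a WT-only peak, with 16 peaks, and 12 were nearest to a KO-only peak, also with 16 peaks. Of the 8, all tested, 5 were called lower and 1, Tnc, higher. Over the 28 tested genes of the list, 18 were called lower and 3 higher. Postn, which encodes periostin, a matrix protein of activated fibroblasts, had 2 intergenic peaks beyond its 3′ end, at 40.7 and 117 kb from its start. Postn RNA was at 932 and 972 CPM in WT and 537 and 561 CPM in KO, a log2 fold change of -0.79 (SE 0.03, edgeR adjusted p = 2.34e-17). Col11a1, a chain of a minor fibrillar collagen, had a single peak that lay 45.7 kb upstream and was masked over its whole length. Its RNA was at 138 and 141 CPM in WT and 67.3 and 72.7 CPM in KO, a log2 fold change of -0.99 (SE 0.06, edgeR adjusted p = 4.77e-14). Both KO libraries were far below both WT libraries for Postn and Col11a1. Col3a1, a major fibrillar collagen, had 3 WT-only and 2 KO-only peaks and a log2 fold change of -0.52, and Fn1, fibronectin, had 1 peak and -0.28. Fmod was the further gene called lower, and Loxl1 and Col5a1 did not pass the test.

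Growth factors and their receptors held 10 WT-only peaks near 9 of 27 genes, all tested, of which 4 were called lower and 3 higher, against 6 lower and 5 higher of 26 tested in the list. Fgf10, a mesenchymal growth factor for epithelia, had a single peak in its intron, 62.6 kb from the start and 16.3 kb from any KO peak. Fgf10 RNA was at 11.5 and 10.3 CPM in WT and 3.77 and 2.37 CPM in KO, a log2 fold change of -1.82 (SE 0.22, edgeR adjusted p = 2.25e-07). Its relative Fgf7 had a peak in an intron 2.78 kb from the start, and its RNA was at 50.7 and 50.2 CPM in WT and 26.7 and 30.3 CPM in KO (log2 fold change -0.82, edgeR adjusted p = 1.67e-08). Igfbp5, which binds insulin-like growth factors, had a peak 3.28 kb upstream and was called lower (2.40 and 3.10 CPM in WT, 1.67 and 1.00 CPM in KO, log2 fold change -1.03, edgeR adjusted p = 0.0356). That call was lost with DESeq2, with the replicate block, and without KO replicate 2 (-0.72) or WT replicate 2 (-0.84). Bmpr2, a BMP receptor, was called lower as well (59.1 and 62.2 CPM in WT, 35.4 and 48.6 CPM in KO, log2 fold change -0.53). Igfbp3, which also binds insulin-like growth factors, and the epidermal growth factor receptor Egfr were among the 3 called higher, by 0.57 and 0.38 on the log2 scale. Ephb2 and Pdgfa, a receptor and a ligand, did not pass the test.

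No WT-only peak was nearest to any of 6 actin genes, a list too short to set against the background share of 11.87%. Of 24 contractile and stress fibre genes, 3 had 4 WT-only peaks in all, near the background share of 11.87%, and 10 had 15 KO-only peaks. The 3 were Smtn, Actn1 and Mylk, for smoothelin, α-actinin and the myosin light chain kinase. Smtn was at 30.0 and 28.9 CPM in WT and 44.7 and 37.8 CPM in KO (log2 fold change 0.49, edgeR adjusted p = 1.97e-04). Actn1 was higher in KO by 0.21 on the log2 scale, and Mylk did not pass the test (5.40 and 4.87 CPM in WT, 7.10 and 7.21 CPM in KO). Of 20 focal adhesion genes, Itgav, Parva and Tns1 had 1 WT-only peak each, against 12 KO-only peaks near 7 genes, and Itgav, an integrin chain, was lower by a log2 fold change of -0.20, which DESeq2 did not call and which failed when KO replicate 1 was left out (-0.14). Of 19 SRF and MRTF target genes, 7 had a WT-only peak each and 8 had 13 KO-only peaks, with Fhl2 and Tgfb1i1, a pair of LIM proteins, higher in KO by 0.27 and 0.46 on the log2 scale, and Myocd, the cardiac and smooth muscle coactivator of SRF, had a WT-only peak and too little RNA to be tested. The list of YAP, TAZ and TEAD genes held 20, of which 9 had 15 KO-only peaks. Its coactivator Yap1 and DNA-binding factor Tead1 had 1 WT-only peak each, with Yap1 higher by 0.32 and Tead1 not called. DESeq2 did not call Yap1, and leaving out KO replicate 2 or WT replicate 1 (0.22 each) ended its call. The AP-1 list of 14 genes had 4 WT-only peaks, near Bach1, Bach2, Fosl1 and Fosl2, and 8 KO-only peaks near 5 genes. Of those with WT-only peaks, Fosl1 was higher by 0.23 and the other genes did not pass. In the TGF-β response list, 5 of 19 genes had 6 WT-only peaks and 9 had 23 KO-only peaks, with Smad7, an inhibitor of the pathway, lower by a log2 fold change of -0.56, Ltbp2, a latent TGF-β binding protein, by -0.39, and Tgif1, a repressor, higher by 0.18, a call lost with DESeq2. Over whole lists, 17 of 24 contractile, 12 of 18 tested SRF and MRTF target and 13 of 20 focal adhesion genes were called higher in KO, and 1, 0 and 2 were called lower. Of 20 YAP, TAZ and TEAD genes, 10 were called higher and 3 lower. Of 13 tested AP-1 genes, 8 were higher and 0 lower, and of 19 TGF-β response genes, 6 were higher and 6 lower.

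Among nearest genes with a start within 100 kb and a mean log2 CPM of at least 2, the 12 largest falls ran from -1.15 to -4.23 on the log2 scale. Ucp2, which encodes a mitochondrial carrier, was at 109 and 104 CPM in WT and 6.66 and 4.56 CPM in KO (log2 fold change -4.23, SE 0.11, edgeR adjusted p = 3.35e-22). Its WT-only peak lay 10.2 kb from the start, past its 3′ end and in an intron of a neighbouring gene and 7149 bases from a KO peak. Mfap4, a microfibril protein, was at 134 and 128 CPM in WT and 45.7 and 44.5 CPM in KO (log2 fold change -1.54, SE 0.06, edgeR adjusted p = 1.24e-17), with a peak 1.97 kb upstream. Svep1, a large cell adhesion protein, fell by 1.26 on the log2 scale, and Col14a1, a collagen that lies on fibrils, fell by 1.15. C1qtnf3, a secreted C1q-like protein, fell by 1.89, and Cemip, which degrades hyaluronan, fell by 1.16. Slc9a9, an endosomal sodium and proton exchanger, had its peak at a promoter and fell by 1.67. Avpr1a, a vasopressin receptor, fell by 1.43, and Tmem119, a membrane protein of bone-forming cells and microglia, fell by 1.34. Hist1h2br, a histone gene of a large cluster of near-identical copies, fell by 1.17 and is uncertain for that reason. In each of the 12 genes both KO libraries were below both WT libraries, which follows from choosing them by their fold change in these same libraries.

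The 8 largest rises near WT-only peaks ran from 1.17 to 5.01 on the log2 scale. Cda, cytidine deaminase, was at 0.240 and 0.664 CPM in WT and 17.0 and 13.3 CPM in KO (log2 fold change 5.01, SE 0.31, edgeR adjusted p = 5.38e-13), and it had 2 KO-only peaks beside its 1 WT-only peak. Capzb, the β subunit of the actin capping protein, was at 403 and 368 CPM in WT and 1007 and 973 CPM in KO (log2 fold change 1.36, SE 0.04, edgeR adjusted p = 1.15e-21), and its peak lay 43 bases from a KO peak. Ngfr, a neurotrophin receptor, rose by 1.89 and Galnt18, a glycosyltransferase, by 1.61. Serinc2, a membrane carrier protein, and Tnfsf15, a cytokine, rose by 1.61 and 1.56. Esrp2, a splicing factor of epithelia, and Epb41l4a, a band 4.1 protein, rose by 1.23 and 1.17. Of the 8 genes, 5 had KO-only peaks as well.

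**Figure D4:**
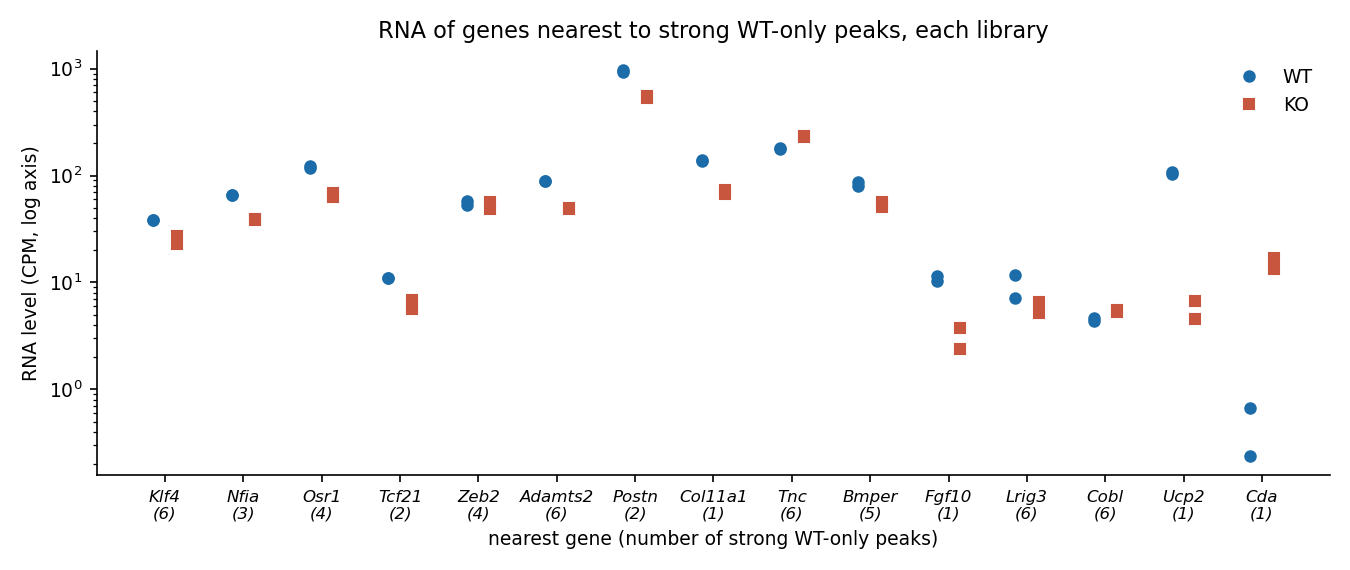
RNA level of 15 genes nearest to strong WT-only peaks, in CPM on a log axis, with each WT library as a circle and each KO library as a square; the number of WT-only peaks is given under each name. The genes were picked from those named in the text, some of them for their RNA change, and do not represent all nearest genes. Of all 1607 tested nearest genes, 20.3% were called lower and 18.9% higher. The WT and KO libraries do not overlap except for Zeb2, but with 2 libraries each this holds even for Cobl, which was not called. Tnc, Cobl and Cda are higher in KO (Cobl did not pass the test), and the others shown are lower (Zeb2 did not pass).

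None of these peaks lay within 100 kb of the start of Acta2. With 14 strong WT peaks there and a WT-only share of 5.04% over all strong WT peaks, this is near the background. Acta2 RNA was at 2186 and 2200 CPM in WT and 256 and 266 CPM in KO (log2 fold change -3.07, SE 0.03, edgeR adjusted p = 1.59e-32), which accords with the genotype labels. Within 100 kb of its start, all 14 strong WT peaks overlapped a KO peak, 4 of 23 WT peaks had no KO counterpart with a highest fold of 4.52, and 3 strong KO peaks had no WT counterpart. The nearest WT-only peak was 343040 bases away, in the cluster of Ifit genes, which respond to interferon. One lay at chr19:34598531-34598806 near Ifit1bl1, at a transcript start. Another lay at chr19:34609213-34609710 in the intron of Ifit3b, whose RNA was at 183 and 178 CPM in WT and 68.4 and 73.7 CPM in KO (log2 fold change -1.34, SE 0.05, edgeR adjusted p = 1.48e-17). The other interferon gene with a WT-only peak, Zbp1, a sensor of Z-form nucleic acid, was lower by a log2 fold change of -0.61. Over the interferon list, 19 of 26 tested genes were called lower and 2 higher, so these 2 genes moved as most of the list did.

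Markers of other cell types were nearest to some of these peaks. No WT-only peak was nearest to a marker of cardiomyocytes (7 genes), Schwann cells (3) or lymphocytes (3), lists too short to set against the 11.87% background. The macrophage list had 1, near C1qb, and its 7 tested markers summed to 100 and 96.9 CPM in WT and 175 and 177 CPM in KO, with 6 called higher and Fcgr1 at 0 counts in all libraries. The endothelial list had 4, near Cdh5 and Flt1, and summed to 115 and 109 CPM in WT and 144 and 155 CPM in KO, with 7 of 9 called higher. Cdh5, vascular cadherin, was one of them (edgeR adjusted p = 0.0342, lost with DESeq2 and without any 1 of the 4 libraries), while the VEGF receptor gene Flt1 was called lower, at 28.8 and 25.9 CPM in WT and 16.5 and 18.5 CPM in KO. The pericyte marker Abcc9, too low in RNA to be tested, and the mesothelial marker Krt8, which did not pass the test, had 1 peak each. Of 6 tested pericyte and smooth muscle markers, 3 were called lower and 2 higher. Of 6 tested mesothelial markers, 4 were called lower and 1 higher. Fibroblast markers summed to 4469 and 4401 CPM in WT and 3232 and 3251 CPM in KO, with 7 of 9 called lower, Postn and Tcf21 among them. In bulk RNA, fewer cells of a type and less RNA per cell cannot be told apart, and the part of cell composition in the peaks and RNA changes above was not tested.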

How the data were processed

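ATAC-seq (1 KO and 1 WT library, on nuclei of 10000 cells each per the labels) and RNA-seq (2 and 2) of cardiac fibroblasts were used as deposited. Per the labels' protocols, ATAC-seq reads were trimmed with Trim Galore 0.6, checked with FastQC and mapped with Bowtie2 2.3 to mm10. Alignments that were not unique, duplicates and mitochondrial reads were removed. Peaks were called by the authors with MACS2 for each sample separately, without a local background (nolambda) and without a shifting model (nomodel), per the labels' protocols. The deposited peak lists give a score, a fold enrichment and −log10 p and q values per peak, which are the authors' and are used here only to filter and describe peaks within a list; read depth of the ATAC-seq libraries was not stated there. The deposited RNA table holds estimated counts per gene, of which 10.8% to 12.2% are not whole. The submitters' processing notes name STAR 2.5.3a. For the gene counts, the program and the gene models were not given in the sources used here. The totals ran from 8429166 to 11370115 estimated counts per library.

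WT-only peaks were found in Python 3.11.15 with pandas 2.3.3 and numpy 2.4.6 (1 shared base ends membership). Summits were placed against the GENCODE models of GRCm38.p6, in which 25712 of the 25746 genes of the table were found. A promoter is within 1000 bases of a transcript start, the nearest gene is the one of the count table with the closest start, and motifs were read in 300 bases. Masked peaks were aligned with blastn 2.17.0. Shared peaks were weighted so that each fold step had the members' share. RNA was tested on rounded estimates with edgeR 4.0.16 in R 4.3.3 with limma 3.58.1 (TMM, filterByExpr with a minimum count of 10, quasi-likelihood test, Benjamini-Hochberg adjusted p under 0.05), over all 12192 genes that passed. The plan assumed whole counts. The fit was tested on simulated data. DESeq2 1.42.0, other scalings, filters, distances, fold minimums, left-out libraries and assumed biological coefficients of variation (BCV) of 0.1 and 0.2 were alternatives.

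The members and gene lists were chosen with earlier results of these data known. Named are the 12 highest peaks with ties, peaks within 100 kb of Acta2, up to 10 genes with the most peaks, the 12 lowest and 8 highest called genes with a start within 100 kb and at least 2 as mean log2 CPM, and up to 3 genes per list by the fold of their peak. Further list genes, genes with 4 peaks, other strongest peaks' genes, the repeat comparison, the restriction to peaks under 50% masked and the counts by number of peaks were chosen after seeing the data.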

Additional observations from a re-analysis of the deposited data

How the results depend on the processing

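The number of strong WT-only peaks followed the threshold: 14061 at a fold minimum of 4, 1334 at 6 and 169 at 8, and 7298 when only an overlap of 50% of the WT peak ended membership. The promoter share was 3.35% within 500 bases, 9.97% within 2 kb, 6.15% counting any base of the peak and 4.14% at a fold minimum of 8. In 100-base windows the motif shares were 4.39% for AP-1, 3.09% for RUNX, 2.31% for TEAD and 1.85% for the GC box. AP-1 stood at 16.9% at a fold minimum of 4 and 22.0% in members under 50% masked, a restriction added after seeing the data. RUNX was 10.7% and TEAD 4.14% at a fold minimum of 8, and TEAD was 7.54% under 50% masked. The genes called over the whole table were 4352 in edgeR, 2058 with DESeq2, 1780 at an assumed BCV of 0.1, 398 at 0.2, and 3392 to 3674 with 1 library left out. Nearest genes called lower and higher were 185 and 132 with DESeq2, 143 and 152 at a BCV of 0.1, and 35 and 23 at 0.2. They were 75 and 93 within 10 kb, 211 called lower within 50 kb, 514 and 470 for the nearest tested gene, 856 and 907 at a fold minimum of 4, 142 and 102 at 6, and 25 and 9 at 8. With 1 library left out they were 260 to 277 lower and 232 to 245 higher. Their median log2 fold change was -0.022 with DESeq2, 0.006 with library size only, 0.021 without the filter, 0.021 within 10 kb, 0.002 within 50 kb, -0.005 within 100 kb, -0.009 by gene body, 0.007, -0.052 and -0.132 at fold minimums of 4, 6 and 8, and -0.013 to 0.001 with 1 library left out. The sign of this median therefore depends on the setting. With the replicate block 4408 genes were called, and 332 nearest genes were lower and 298 higher. Replicate numbers are not known to pair samples (correlation of deviations 0.00584 over only 2 numbers). Of 80 named genes tested, 59 were called, 44 of them under all RNA alternatives other than an assumed BCV and 22 under all, and none reversed. Genes with at least 4 WT-only peaks called lower were 5 of 16 with DESeq2, 6 at a BCV of 0.1, 0 at 0.2 and 7 to 8 with 1 library left out. Depth limits these values in that ATAC-seq had 1 library a genotype, members close to the threshold were 38.8% of all, and 1607 of 2909 nearest genes had enough RNA to be tested.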

Other observations

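The 5 Mb stretch with the most strong WT-only peaks was chromosome 4 from 135 to 140 Mb, with 26 of its 399 strong WT peaks (6.52%). The same stretch held 68 KO-only peaks of 515 strong KO peaks (13.2%). Over all strong WT peaks the WT-only share was 5.04%. Some stretches held more strong WT peaks and fewer WT-only ones, such as chromosome 8 from 120 to 125 Mb, with 18 of 497 (3.62%). Why the chromosome 4 stretch led by number was not tested. Of the 56 tested genes in the chromosome 4 stretch, 9 were called lower and 29 higher in KO by edgeR. Cda, cytidine deaminase, Capzb, the capping protein subunit, and C1qb, a complement component of macrophages, lie in it. C1qb was at 1.199 and 0.553 CPM in WT and 2.37 and 3.83 CPM in KO, and its call was lost without KO replicate 2 (log2 fold change 1.44).

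Among the cytokine genes nearest to WT-only peaks, Il6, an inflammatory cytokine of fibroblasts, was at 35.6 and 37.7 CPM in WT and 29.3 and 26.2 CPM in KO (log2 fold change -0.40, edgeR adjusted p = 0.00141). Nfkbia, an inhibitor of NF-kappaB, was higher in KO by 0.19 on the log2 scale. Csf2, a growth factor of myeloid cells, had 2 peaks and too little RNA to be tested. Of the list's 19 genes, 4 had 5 WT-only peaks and 10 had 11 KO-only peaks. Of 17 tested, 6 were called lower and 8 higher. In the Wnt list, Dkk3, a secreted Dickkopf protein, was at 14.8 and 15.7 CPM in WT and 8.59 and 10.1 CPM in KO (log2 fold change -0.70, edgeR adjusted p = 6.65e-04), and Fzd1, Ror1 and Ror2, receptors with 1 peak each, did not pass the test. Of the 18 Wnt genes, 13 had 19 KO-only peaks, and of 17 tested, 4 were called lower and 2 higher. Among the fibroblast identity genes, Dpep1, a membrane dipeptidase, was lower in KO with a log2 fold change of -0.53, and Cd34, a surface sialomucin, was higher by 0.33. Over that list, 8 of 18 tested genes were called lower and 3 higher.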
